A study of Homo sapiens with 9 samples.

Results

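The thioredoxin, peroxiredoxin and sulfiredoxin genes are described here by 10 members of the gene table, *TXN*, *TXNRD1*, *TXNRD2*, *SRXN1*, *PRDX1*, *PRDX2*, *PRDX3*, *PRDX5*, *PRDX6* and *TXNIP*, out of 59452 genes listed. They were chosen by symbol, with earlier results of these libraries known, among them the response of *SRXN1* to AT-0174. All 10 were among the 15528 genes that passed the filter on low counts. RNA was sequenced from MDA-MB-453, an established human cell line that the labels give as triple-negative breast cancer and wild type, in 3 groups of 3 libraries. The first group was grown attached with vehicle (DMSO), the second was held in forced suspension on poly-HEMA-coated plates with vehicle, and the third was held in the same suspension with 10 µM AT-0174, an inhibitor of both tryptophan-catabolizing enzymes TDO2 and IDO1. Treatment lasted 48 hours in every group, and no attached group with AT-0174 was analysed here. The study's methods give the 3 libraries of a group as biological replicates, all of 1 cell line.

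Thioredoxin is a small protein with a pair of reactive cysteines that reduces disulfides in other proteins, and thioredoxin reductase, a selenoprotein, recharges it with electrons from NADPH. Peroxiredoxins use a reactive cysteine to break down hydrogen peroxide, and most of them are then reduced by thioredoxin. When peroxide overoxidizes that cysteine in a typical peroxiredoxin, sulfiredoxin repairs it. TXNIP binds reduced thioredoxin and limits its activity, and it also restrains glucose uptake. Several genes of this system are known targets of NRF2, a transcription factor that responds to electrophiles and oxidants, whereas *TXNIP* is known as a target of the glucose-sensing Mondo factors.

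RefSeq promoter windows (GRCh38.p14, 250 bases before to 50 after a gene start) were found for 8 of the 10 genes, in 13 windows, with no entry matched for *PRDX1* and *PRDX6*. The windows were searched on both strands for the core of the antioxidant response element, TGACNNNGC, and for the paired carbohydrate response sites, CACGNG and again CACGNG after 5 bases. Every stretch that held a match is shown, and capitals mark the fixed letters of each match. The matches lay in windows of *TXNRD1* and *TXNIP*, and a link to the changes of these genes was not tested.
TXNRD1 upstream window, chr12:104215670-104215698, plus strand: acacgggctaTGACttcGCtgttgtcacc
TXNRD1 upstream window, chr12:104215761-104215789, plus strand: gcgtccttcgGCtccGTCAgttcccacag
TXNRD1 downstream window, chr12:104286920-104286948, plus strand: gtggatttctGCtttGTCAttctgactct
TXNIP window, chr1:145996600-145996699, minus strand: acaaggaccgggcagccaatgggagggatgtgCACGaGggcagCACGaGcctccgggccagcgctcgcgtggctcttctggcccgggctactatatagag

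The antioxidant core was at -99 and, on the opposite strand, at -8 from the upstream start of *TXNRD1*, and on the opposite strand at -102 from its downstream start. The same letters were in 13.3% of 35116 promoter windows, so a match is frequent by itself. The paired sites at -88 in the *TXNIP* window were in 0.057% of windows, or 20 of 35116. No other member window held either pattern, which says only that these letters are not in those bases.

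Libraries held between 36649997 and 48019126 estimated counts. Counts on genes of the mitochondrial genome took 7.56% to 9.32% of the attached libraries, 4.05% to 4.34% of the suspended vehicle libraries and 3.73% to 5.51% of the AT-0174 libraries. The share thus moved with suspension, and without these genes the fit called the same number of members in each comparison, 4 and 5. All 6 breast epithelial markers passed the filter, with summed levels between 3320 and 3722 CPM. The summed level of 3 fibroblast markers was between 107.5 and 149 CPM and only *COL1A1* of them passed the filter. Leukocyte and endothelial markers summed to at most 2.31 and 0.191 CPM. RNA came from bulk cultures, in which fewer cells of a kind and less RNA per cell cannot be told apart.

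On the TPM scale, which divides by transcript length, the 10 genes covered a wide range of levels in attached cells. *PRDX2*, a cytosolic peroxiredoxin that is also abundant in red blood cells, had the highest level, 893 ± 35.6 TPM (mean ± SD, n = 3). *PRDX1*, its close relative in cytosol and nucleus, followed with 614 ± 43.6 TPM, and *PRDX5*, an atypical peroxiredoxin found in several compartments, with 352 ± 9.73 TPM. These 3 genes did not overlap with each other or with any other member in the attached libraries.

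Below them, *PRDX6*, which uses a single reactive cysteine and glutathione, had 161 ± 4.73 TPM, and *TXN* had 131 ± 9.67 TPM. *TXNRD1*, the cytosolic reductase, and *TXNIP* had 109 ± 8.05 and 106 ± 2.60 TPM, and these neighbours in the order overlapped between libraries. *PRDX3*, the mitochondrial peroxiredoxin, had 47.4 ± 3.38 TPM, *SRXN1* had 38.8 ± 1.68 TPM, and *TXNRD2*, the mitochondrial reductase, had the lowest level, 31.8 ± 1.40 TPM. *PRDX2*, *PRDX1* and *PRDX5* led the group means in this order in all 3 groups. With AT-0174, *TXN* reached 179 ± 5.76 TPM, beside 179 ± 8.84 TPM for *PRDX6*.

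**Figure D1:**
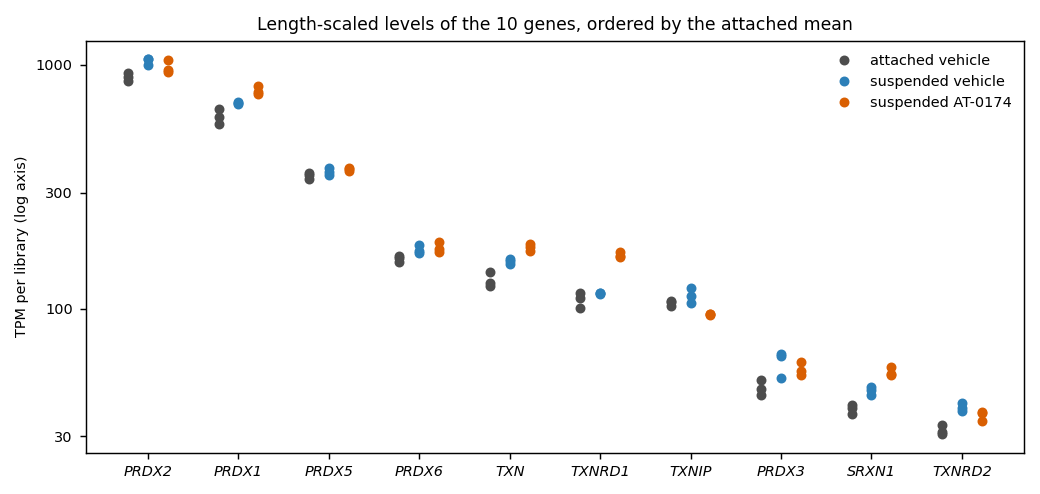
Level of each of the 10 genes in TPM (log axis) in every library, with colours for attached vehicle, suspended vehicle and suspended AT-0174 cells; genes stand in the order of their attached means. *PRDX2* at 893 TPM and *TXNRD2* at 31.8 TPM are the ends of the attached order, and the *TXNRD1* points with AT-0174 lie above both vehicle groups.

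The first comparison, suspended against attached cells with vehicle, asks how loss of attachment changes these genes. *TXN*, *TXNRD2*, *SRXN1* and *PRDX3* rose in suspension, by 10.1% to 18.8%, and the other 6 genes did not pass the test. The 4 calls of 10 were all higher, where 21.2% of all tested genes were called, 10.4% higher and 10.8% lower. The median log2 fold change was 0.09 over the 10 genes and -0.00025 over all genes tested. Changes of this size are small, and several calls turned on single libraries. The adjusted p-values below are Benjamini-Hochberg values over all tested genes from edgeR's quasi-likelihood test, and since the genes were not picked blind, they describe the members and are not independent evidence.

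*TXN*, thioredoxin itself, had 58.3, 51.3 and 54.2 CPM (counts relative to the TMM-scaled library size) in the attached libraries and 61.7, 58.8 and 61.5 CPM in suspended vehicle libraries. Every suspended library was above every attached one, although the highest attached and the lowest suspended library nearly met. Its log2 fold change was 0.15 ± 0.046 (SE), with an adjusted p of 0.034. *SRXN1* had 68.5, 67.1 and 65.0 CPM attached and 71.9, 75.8 and 73.1 CPM suspended, again without overlap. It rose by 0.14 ± 0.037 on the log2 scale, with an adjusted p of 0.02 from edgeR.

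Of the reductases, the mitochondrial *TXNRD2* had 42.5, 40.4 and 38.2 CPM attached and 44.9, 44.7 and 47.0 CPM in suspension. The groups did not overlap, and the log2 fold change was 0.17 ± 0.054 (edgeR adjusted p = 0.0378). *TXNRD1* had 209, 210.1 and 197 CPM attached and 206, 196 and 201 CPM suspended. The groups overlapped throughout, and its log2 fold change was -0.03, with a 95% interval from -0.11 to 0.04 that includes 0.

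*PRDX3* had 51.2, 46.6 and 46.1 CPM in attached libraries and 49.9, 59.8 and 61.0 CPM in suspended ones. The first suspended library lay within the attached range, and the other two stood above it. The log2 fold change, 0.25 ± 0.070, was the largest of the 10 genes (edgeR adjusted p = 0.0257). *PRDX2* had 488, 513 and 487 CPM attached and 526, 537 and 537 CPM suspended. Its groups did not overlap, but the log2 fold change of 0.11 had an adjusted p of 0.0644 in edgeR and did not pass. It passed with DESeq2 (adjusted p = 0.029), in edgeR without the count filter (0.031) and without AT-0174 replicate 1 or 3 (0.0361 and 0.0459), with a range of 0.029 to 0.172 over all alternatives.

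The remaining genes overlapped between groups and did not pass the test. *PRDX1* had a log2 fold change of 0.08 (95% interval -0.0029 to 0.16), *PRDX6* of 0.06 (-0.02 to 0.14) and *PRDX5* of -0.06 (-0.14 to 0.02). *TXNIP* had 189, 196 and 186 CPM attached and 181, 188 and 204 CPM suspended, a log2 fold change of 0.0012 with an interval from -0.09 to 0.09. Without overlap and higher in suspension were 4 of the 10 genes, where 19.4% of all genes were so and 18.7% were lower without overlap.

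No suspension call stood in every fit. Without attached replicate 3, which had the largest mitochondrial share (9.32%), none of the 4 calls passed, and the part of that share was not tested. Calls over all genes also fell in that fit, from 3297 to 1935. Without attached replicate 2, *SRXN1* alone passed. Leaving out suspended vehicle replicate 1, 2 or 3 left 2 calls (*SRXN1* and *PRDX3*), 1 call (*TXN*) and 1 call (*SRXN1*). Calls over all genes were 2673, 1951 and 2305 in these fits, and 2686 without attached replicate 2.

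The second comparison, AT-0174 against vehicle in suspended cells, asks how the inhibitor changes these genes, and it shares the suspended vehicle libraries with the first. *TXNRD1* rose most, by 47.9%, followed by *SRXN1* (23.2%), *TXN* (18.0%) and *PRDX1* (16.2%), whereas *TXNIP* fell by 14.6%. The mitochondrial genes *TXNRD2* and *PRDX3*, and *PRDX2*, *PRDX5* and *PRDX6*, did not pass the test. The 5 calls were 4 higher and 1 lower, where 0.779% of all tested genes were called, 0.522% higher and 0.258% lower. The genes were selected with this comparison in view, so the count and the values are a description, and nothing is read from that background. No p-value is printed for the members here. Calls, in the text and as filled points in the figure of changes, only state on which side of the threshold a gene lay.

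*TXNRD1* had 206, 196 and 201 CPM in suspended vehicle libraries and 293, 294 and 305 CPM with AT-0174. The treated libraries stood far above both vehicle groups, with no value between 210.1 and 293 CPM in any library. Its log2 fold change was 0.56 (95% interval 0.49 to 0.64), or 1.48-fold. *SRXN1* went from 71.9, 75.8 and 73.1 CPM to 93.0, 91.0 and 88.1 CPM with AT-0174. These groups did not overlap either, and the log2 fold change was 0.30 (0.22 to 0.38), or 1.23-fold. *TXNRD1* and *SRXN1* kept their calls when any of the 9 libraries was left out. These fits reuse the libraries whose *SRXN1* response was known at the choice of genes, so this is description and no separate support.

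*TXN*, the substrate of *TXNRD1*'s product, had 61.7, 58.8 and 61.5 CPM with vehicle and 72.5, 70.7 and 71.4 CPM with AT-0174. Treated libraries were close to each other and all above the vehicle ones, with a log2 fold change of 0.24 (0.14 to 0.34). *PRDX1* had 374, 366 and 372 CPM with vehicle and 443, 428 and 422 CPM with AT-0174, again without overlap, and a log2 fold change of 0.22 (0.13 to 0.30). *PRDX1* shares 501 exon bases with *MMACHC* on the opposite strand, whose counts were at most 7.45% of those of *PRDX1* and whose log2 fold change was -0.01. The strand setting of the counting is not given in the sources used here.

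*TXNIP*, the thioredoxin inhibitor, had 181, 188 and 204 CPM with vehicle and 161, 164 and 163 CPM with AT-0174. It was the only member called lower with the drug, with every treated library below every vehicle one in suspension and in attachment. Its log2 fold change was -0.23 (-0.32 to -0.14). The calls of *TXN*, *PRDX1* and *TXNIP* depended on the libraries kept. Leaving out suspended vehicle replicate 2 or 3, or any of the AT-0174 libraries, left 2 of the 5 calls. Leaving out suspended vehicle replicate 1 left 3, with *TXNIP* as the third. Calls over all genes fell from 121 to between 63 and 86 in these fits. With any library left out, the log2 fold changes of *TXN*, *PRDX1* and *TXNIP* were 0.21 to 0.25, 0.20 to 0.23 and -0.27 to -0.18.

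The other peroxiredoxins gave narrow intervals around small values. *PRDX2* had 548, 516 and 496 CPM with AT-0174 and a log2 fold change of -0.04 (-0.12 to 0.05). *PRDX6* had 183, 170.1 and 172 CPM and a value of 0.06 (-0.02 to 0.14). *PRDX5* had 175, 180.3 and 173 CPM and a value of 0.08 (0.00059 to 0.15). That unadjusted interval lies just above 0, although *PRDX5* did not pass the test. *PRDX2*, *PRDX6* and *PRDX5* each overlapped with their vehicle libraries. The mitochondrial pair *PRDX3* and *TXNRD2* had log2 fold changes of -0.06 (-0.21 to 0.09) and -0.06 (-0.17 to 0.06). The 5 intervals reach no further than 0.15 upward, where the interval of *TXNRD1* begins at 0.49. Without overlap were 4 genes higher and 1 lower, where 7.75% and 7.66% of all tested genes were higher and lower without overlap.

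**Figure D2:**
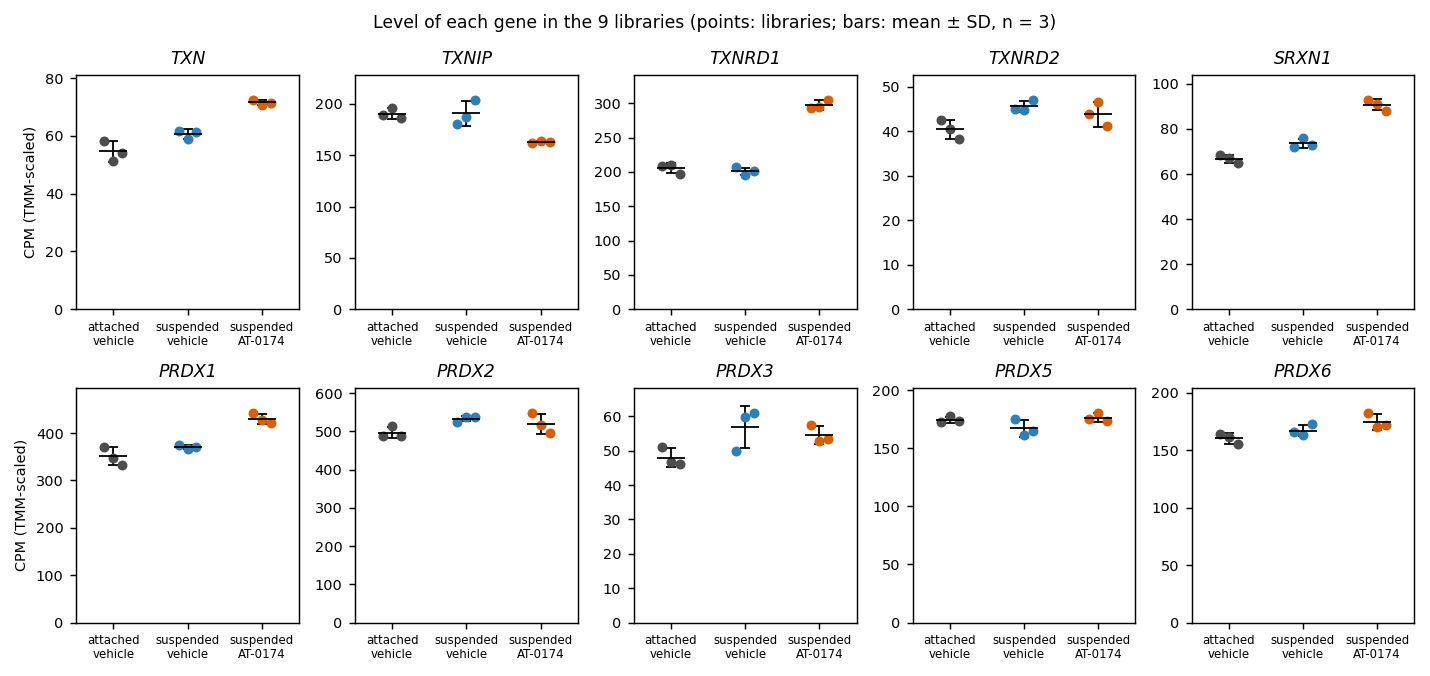
CPM of the 10 genes in each of the 9 libraries (points), with the mean and SD of each group of 3 (bars); every axis starts at 0. The AT-0174 points of *TXNRD1*, *SRXN1*, *TXN* and *PRDX1* lie above those of both vehicle groups, and those of *TXNIP* lie below.

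**Figure D3:**
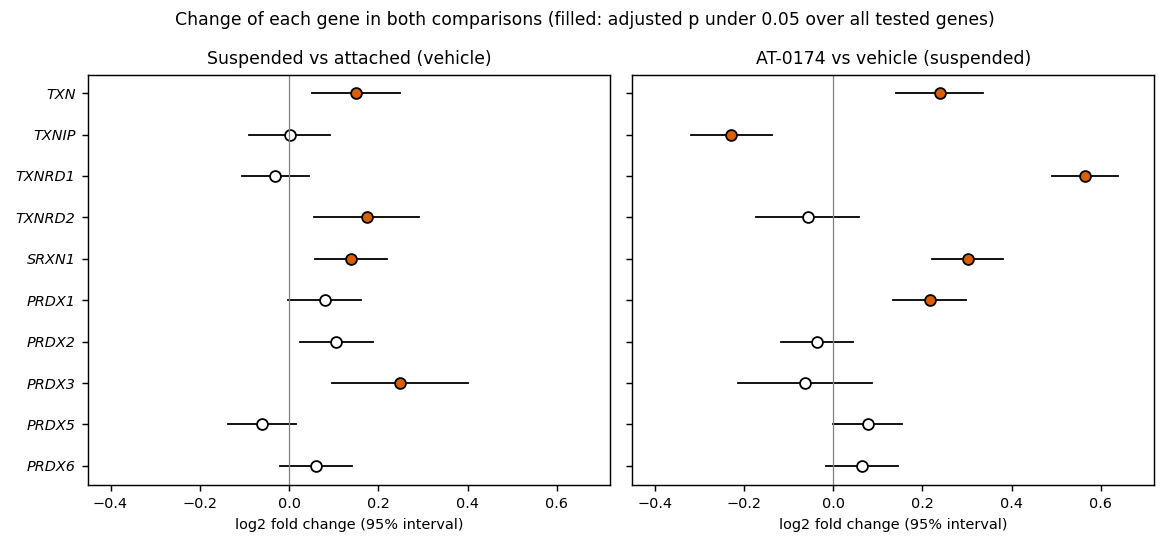
Log2 fold change with its 95% interval for each gene in suspended against attached cells (left) and AT-0174 against vehicle (right); filled points had an adjusted p under 0.05 over all tested genes. The values on the left lie between -0.06 and 0.25, and those on the right between -0.23 and 0.56.

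Ratios within a library do not depend on depth or on the scaling between libraries. The ratio of *TXNIP* to *TXN* TPM, an inhibitor set against its target, was 0.753, 0.873 and 0.808 in attached libraries, 0.675, 0.741 and 0.758 in suspended vehicle libraries and 0.511, 0.552 and 0.532 with AT-0174. All treated libraries were below all vehicle ones, and the means were 0.811 ± 0.0604, 0.725 ± 0.0436 and 0.531 ± 0.0208 (SD, n = 3). As *TXN* rose and *TXNIP* fell with AT-0174, this separation follows from their own values and is no further result. *TXNRD1* to *TXN*, the reductase against its substrate, had means of 0.837 ± 0.0904, 0.740 ± 0.0235 and 0.929 ± 0.0283. The AT-0174 libraries did not overlap with the suspended vehicle libraries but did with the attached group, in which replicate 2 had 0.941.

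The cytosolic reductase outnumbered the mitochondrial one in every library. *TXNRD1* was 3.44 ± 0.242 times the *TXNRD2* TPM in attached cells, 2.93 ± 0.112 times in suspended vehicle cells and 4.54 ± 0.309 times with AT-0174. *SRXN1* was small beside the peroxiredoxins its protein can repair, *PRDX1* to *PRDX4*, at 2.36% ± 0.0229, 2.42% ± 0.0601 and 2.86% ± 0.0380 of their summed TPM. The summed TPM of the 5 member peroxiredoxins was 2067 ± 83.0 in attached, 2337 ± 39.1 in suspended vehicle and 2376 ± 106.5 in AT-0174 cells. TPM is a share of all transcripts, mitochondrial ones included, and their share was larger in attached cells. *PRDX1* and *PRDX2* together made 72.9%, 74.3% and 74.3% of that sum.

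**Figure D4:**
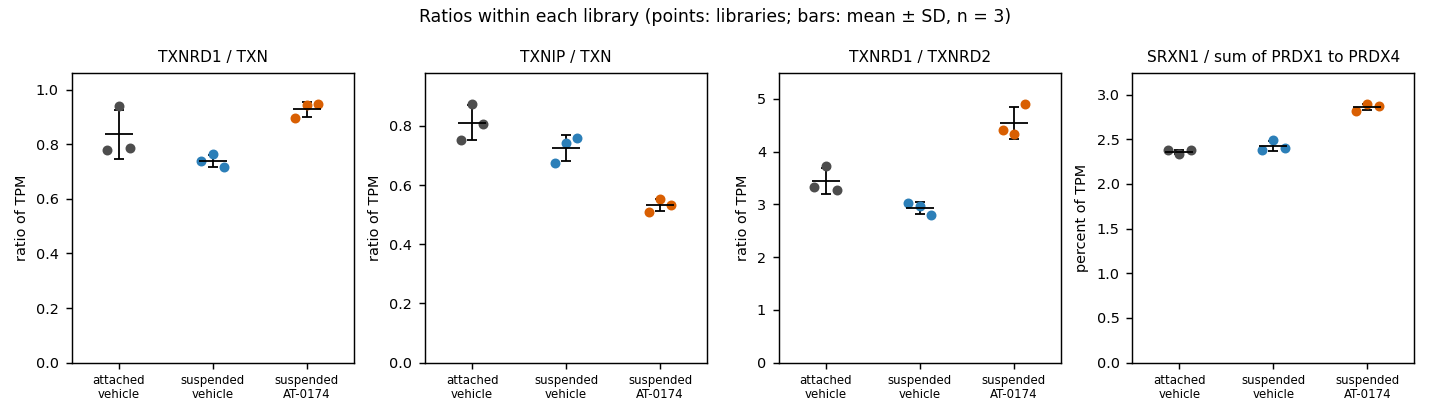
Ratios of TPM within each library for *TXNRD1* to *TXN*, *TXNIP* to *TXN*, *TXNRD1* to *TXNRD2*, and *SRXN1* as a percent of the sum of *PRDX1* to *PRDX4*; points are libraries, bars are the mean and SD of 3, and axes start at 0. With AT-0174 the *TXNIP* to *TXN* ratio lies between 0.511 and 0.552, under every vehicle library, which follows from the opposite moves of these genes.

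The transcript estimates describe which annotated transcripts held a gene's signal. Of 74 annotated transcripts of the 10 genes, 46 passed the filter and 13 held at least 10% of their gene's TPM in some group. Estimates of transcripts that share most of their bases are less certain than those of genes. In *TXNRD1*, 3 of 24 transcripts carried most of the signal, with 42.3%, 25.6% and 17.7% of the gene's TPM in attached cells and 42.1%, 27.6% and 16.1% with AT-0174. The shares thus stayed within a few percentage points while the gene rose.

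ENST00000524698 of *TXNRD1* had 46.9, 51.5 and 47.4 TPM with vehicle in suspension and 68.1, 73.0 and 68.7 TPM with AT-0174. ENST00000503506 had 28.97, 32.7 and 33.9 TPM and then 48.0, 44.1 and 45.3 TPM, and ENST00000526691 had 21.3, 14.9 and 17.2 TPM and then 25.1, 23.5 and 31.8 TPM. The AT-0174 libraries were above the suspended vehicle libraries for each of the 3. Their log2 fold changes were 0.56 ± 0.058, 0.56 ± 0.072 and 0.62 ± 0.16 (SE), beside 0.56 for the gene. The first was the only member transcript called in this comparison by edgeR, where 0.0345% of 66693 transcripts were called. That call was lost in 8 of 9 fits that left out a library, all but the one without attached replicate 2, and also with the 6 libraries of the comparison alone.

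**Figure D5:**
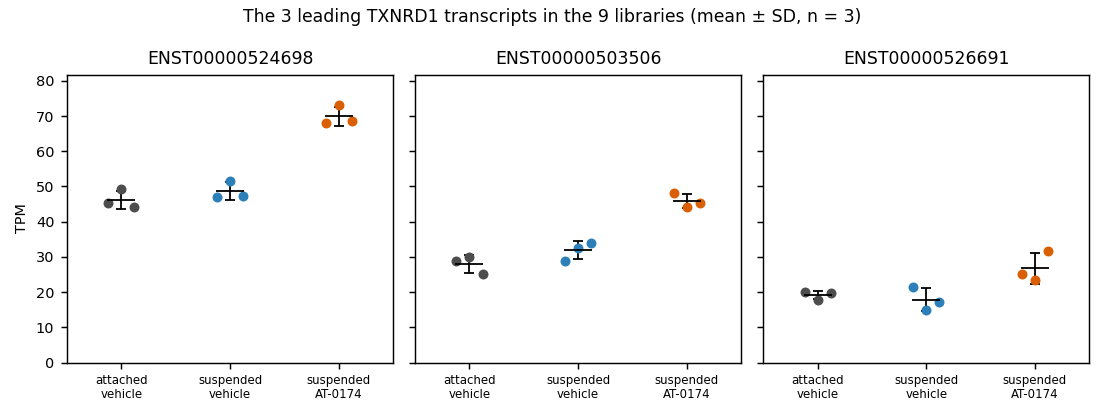
TPM of the 3 leading *TXNRD1* transcripts in each of the 9 libraries (points), with the mean and SD of each group of 3 (bars), on 1 shared axis from 0. In each panel the AT-0174 points lie above the suspended vehicle points, for ENST00000524698 between 68.1 and 73.0 TPM.

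These *TXNRD1* transcripts start at chr12 positions 104287368, 104286682 and 104286881 on the plus strand (GENCODE release 44, GRCh38), close to the downstream promoter window whose sequence is printed above. The match there, at chr12:104286930-104286938, lies downstream of the last 2 starts and upstream of the first. Transcripts that start in this stretch, 13 of 24, held 95.5% to 98.1% of the *TXNRD1* TPM in each library. The 1 transcript that starts at the far upstream window held at most 1.03%, and 5 transcripts had no position in the annotation.

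In suspension against attachment, edgeR called 0 of the 46 member transcripts, where 0.252% of all transcripts were called. *PRDX6* was the other gene with more than 1 leading transcript. ENST00000340385 had 139, 134 and 123 TPM attached and 149, 150.0 and 159 TPM in suspension, and the shorter ENST00000460950 had 24.1, 25.97 and 26.5 TPM and then 20.8, 20.5 and 23.3 TPM. They moved in opposite directions, with log2 fold changes of 0.14 ± 0.056 and -0.32 ± 0.086 (SE), and neither passed (edgeR adjusted p = 0.335 and 0.164). *SRXN1* has 1 annotated transcript, so its gene and transcript values cannot differ by choice of isoform.

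Across the 9 libraries, the genes whose log2 CPM followed a member most closely were taken from 12518 genes, as a description over 3 groups that the points share. For *TXNRD1* these were *UGT1A6* (Pearson r = 0.995), *TKT* of the pentose phosphate pathway (0.994) and *PIR* (0.992). For *SRXN1* they were *TRIM16* (0.995), the microsomal glutathione transferase *MGST1* (0.986) and *TALDO1* (0.980). For *TXNIP* they were *SELENBP1* (0.946), *HLA-C* (0.928) and *GCHFR* (0.927). *UGT1A6* shares exons with its gene cluster, and *TRIM16* and *HLA-C* have near copies, so their counts are uncertain.

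Since the neighbours were picked on these same libraries, their likeness in either comparison follows from the choice, and their values only show its scale. The log2 fold changes of the 3 neighbours of *TXNRD1* were between -0.02 and 0.0024 in suspension, and 0.55, 0.44 and 0.56 with AT-0174. Those of *SRXN1* had 0.13, 0.11 and 0.09 in suspension and 0.34, 0.29 and 0.22 with AT-0174. For *TXNIP* the neighbours had -0.12, -0.13 and -0.18 with AT-0174, and none passed the test.

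Related genes were taken from 6 lists with 55 genes, of which 48 were tested. In suspension 11 of the 48 were called (22.9%, beside 21.2% of all genes), 9 higher and 2 lower, with a median log2 fold change of 0.05. The count fell to 6 without attached replicate 3 or suspended vehicle replicate 2, to 7 without attached replicate 2 or suspended vehicle replicate 3, and to 5 with counts rebuilt from TPM. Calls over all genes fell as well in these fits, to between 1396 and 2686. *ARRDC1*, *ARRDC4*, *GPX1* and *MAP3K5* were called in every alternative fit. Of 13 tested other thioredoxin and peroxiredoxin genes, 3 rose and 10 did not pass. They were *PRDX4*, the peroxiredoxin of the endoplasmic reticulum (0.17), and the thioredoxin-like genes *TXNDC9* (0.23) and *TXNDC17* (0.14). *TXNDC17* lay at the threshold and lost its call with DESeq2, limma-voom and most other alternatives, and *TXNDC9* lost it under the replicate block, with counts rebuilt from TPM and when single vehicle libraries other than suspended replicate 1 were left out. *PRDX4* had 53.2, 51.1 and 48.5 CPM attached and 57.0, 58.5 and 56.2 CPM in suspension, without overlap.

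Among 9 thioredoxin substrates and partners, *RRM2*, a subunit of ribonucleotide reductase (0.15), and *MAP3K5*, the kinase ASK1 that thioredoxin holds inactive (0.18), rose and 7 did not pass. Of 9 tested glutaredoxin, glutathione reductase and peroxidase genes, *GPX1*, a selenium-dependent glutathione peroxidase (0.22), and *GLRX3* (0.17) rose and 7 did not pass. *NNT*, the mitochondrial transhydrogenase that makes NADPH, rose by 0.26, the only call among 4 genes of superoxide and peroxide removal. In the selenoprotein synthesis list, *TRNAU1AP* fell by 0.20 and the other 6 did not pass.

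The alpha-arrestins are the family of *TXNIP*, and the Mondo factors are its known regulators. Of 6 tested genes in that list, *ARRDC4*, the closest relative of *TXNIP*, rose from 20.0, 22.4 and 21.1 CPM attached to 26.3, 26.8 and 28.7 CPM in suspension, with a log2 fold change of 0.37 ± 0.055 (SE; edgeR adjusted p = 0.000968). *ARRDC1* fell by 0.23, and 4 did not pass. *TXNIP* itself had 0.0012 in this comparison.

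With AT-0174, edgeR called 0 of the 48 related genes, with a lowest adjusted p of 0.132, where 0.779% of all tested genes were called. DESeq2 called 2 of them, *ARRDC1* and *SOD1*, limma-voom called 0, and edgeR without the count filter called 3, *ARRDC1*, *SOD1* and the sestrin *SESN3*. Their log2 fold changes in the filtered fit were 0.13, 0.14 and -0.36. The median log2 fold change of the related genes was 0.0078, beside 0.0013 for all genes tested. *PRDX4*, a further target of sulfiredoxin's repair, had 59.9, 59.3 and 55.8 CPM with AT-0174 and a log2 fold change of 0.03. *ARRDC4* had 25.7, 27.4 and 26.8 CPM, within the range of its vehicle libraries except for replicate 1, which was lower.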

How the data were processed

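Per the labels and the study's methods, reads were trimmed with Trim Galore 0.6.7 and cutadapt 3.4, aligned with STAR 2.7.9a to GRCh38 and quantified with Salmon 1.10.1. The labels name a SMARTER kit, the methods a Universal Plus mRNA kit. The authors deposited estimated counts per gene, not normalized. The TPM values per transcript were also made by the authors, and were summed by gene for levels. Members, lists, motifs and tests were chosen with earlier results of these data known.

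Estimated counts were rounded. In R 4.3.3, edgeR 4.0.16 (filterByExpr, TMM, quasi-likelihood test) fitted all 9 libraries with condition as the only term, separately for genes and transcripts, and an adjusted p under 0.05 was a call. The procedure was tested on simulated data with 200 changed genes. At 1.2-fold it recovered 43.5% of them in the suspension comparison and 51% in the AT-0174 comparison. Between 1.2-fold and 2-fold, false calls made 3.33% to 5.81% of the suspension calls and 6.42% to 8.05% of the AT-0174 calls. Some of these shares exceed what the threshold aims at, but each setting was drawn once. All groups had equal means outside the changed genes, so differences between the comparisons can come from the draw. The 200 changed genes were also far fewer than the 3297 called in suspension, so the shares do not describe the real comparisons. Alternatives were DESeq2 1.42.0 and its size factors, limma-voom (limma 3.58.1), other count filters, fits on 6 libraries, counts rebuilt from TPM, a block on replicate number, counts summed with pseudogenes and leaving out each library. Removal of mitochondrial-genome genes was added after seeing the data. Named genes were all members, up to 4 called genes of each related list with the largest change, the 3 genes closest to *TXNRD1*, *SRXN1* and *TXNIP*, and transcripts with at least 10% of a gene's TPM; *SOD1* and *SESN3* were named after their values were seen. Protein sequences were not analysed here. A gene that overlaps a member is not reported here. Intervals give the uncertainty of a log2 fold change, from a spread between libraries estimated over all groups of 1 cell line.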

Additional observations from a re-analysis of the deposited data

How the results depend on the processing

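Of the member log2 fold changes under 19 alternatives each, 329 kept direction and side of the threshold, 39 kept direction but no longer passed, 5 came to pass (4 of them *PRDX2*, 1 *PRDX1*, in suspension) and 7 turned. All 7 were *TXNIP* in suspension, near 0 in every fit: -0.00053 with DESeq2 size factors, -0.00052 with DESeq2, -0.0063 with the 6 libraries alone, -0.00086 with counts rebuilt from TPM, and -0.0031, -0.01 and -0.048 without attached replicate 1, attached replicate 3 and suspended vehicle replicate 3, where leaving out each library gave a range from -0.048 to 0.042. Counts rebuilt from TPM gave 1 member call in suspension (*TXNRD2*) and 2 with AT-0174 (*TXNRD1*, *SRXN1*), and the cause was not tested. Calls over all genes fell to 1396 and 31 in that setting. Leaving out 1 library at a time gave 0 to 5 member calls in suspension and 2 to 5 with AT-0174. Calls over all genes were then 1935 to 3260 and 63 to 128. For member transcripts with AT-0174, leaving out 1 library gave 0 in 8 fits and 1 in the other, and the 6 libraries alone gave 0. Same-numbered libraries did not deviate together (r from -0.02 to 0.04), which shows no pairing but, with 3 libraries a group, cannot exclude it. The replicate block kept 4 and 5 member calls and gave 0 transcript calls with AT-0174. Summing with pseudogenes, at most 0.228% of a member's counts, changed no call. With 3 libraries a group, changes near those of suspension lie close to what the fit can call.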
